A study of Mus musculus with 9 samples.

Results

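The contractile genes of smooth muscle were followed in mouse lungs taken at E18.5, shortly before birth. The set holds 10 genes, picked by symbol from the 27207 genes of the deposited table: Acta2, Actg2, Myh11, Tagln, Cnn1, Des, Myocd, Lmod1, Smtn and Synpo2. All 10 passed the filter on low counts and were among the 19374 genes tested. RNA of 9 lungs had been sequenced in 3 groups of 3, all at E18.5. The wild-type group is labelled only "Wild type". Both mutant groups carry Tbx4-rtTA and Tet-O-Cre together with Dnmt1-D/D, a conditional knockout (CKO) of Dnmt1, the enzyme that copies DNA methylation to the new strand when DNA replicates. In the weak CKO group the lungs were only hypoplastic, that is, too small. In the strong CKO group they were small too, and blood had spread through the parenchyma. The weak and strong groups were thus sorted by how the lungs looked, not by genotype.

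In a line of this kind Cre is switched on through a transactivator driven by Tbx4 sequence, which is active in lung mesenchyme, the tissue that gives rise to airway and vascular smooth muscle. Cre is therefore aimed at only some of the cells whose RNA was measured. When the transactivator was induced is not given in the sources used here. Whether the lungs of a group came from separate litters is not given either, so the p-values rest on lung-to-lung spread, which may in part be technical.

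Smooth muscle contracts when calcium activates myosin light chain kinase and phosphorylated myosin pulls on actin filaments, which are anchored in dense bodies and tied together by desmin. Calponin, transgelin, smoothelin and leiomodin bind those actin filaments. Many of the genes are switched on by serum response factor (SRF), which sits on CArG boxes, and by its coactivator myocardin, the product of Myocd. In the fetal lung these genes are known from the muscle around airways and vessels and, for Acta2, from myofibroblasts as well.

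Counts per library totalled 25607595 to 33156732, and the scaling factors for library composition lay between 0.938 and 1.04. Lung markers (Sftpc, Nkx2-1, Foxf1, Tbx4, Tbx5) were counted in all 9 libraries. Of these 5, 2 were called lower in weak CKO and 5 in strong CKO (median log2 changes -0.41 and -0.59), but only 1 in strong CKO without MUT_S_265_5 or MUT_S_860_3 and 2 without WT_268_1 or WT_549_2. Their part in the members' changes was not tested. Liver markers summed to at most 2.15 CPM (counts scaled to library depth), 1 or 2 of the 4 being at 0 in 5 libraries. Dnmt1 itself, counted over the whole gene, gave 79.1 to 121 CPM in wild type, 59.1 to 80.6 in weak CKO and 62.0 to 78.7 in strong CKO lungs. Its level changed by -0.51 ± 0.17 (SE) on the log2 scale in weak CKO (adjusted p = 0.0727) and by -0.53 ± 0.17 in strong CKO (adjusted p = 0.0433). The second call was lost in 10 of 17 other ways of processing, and whole-gene counts do not separate the deleted part. CPM values given here are scaled for depth and composition.

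RefSeq promoters (GRCm38.p6) were at hand for 6 of the 10 genes: Acta2, Cnn1, Des, Lmod1, Smtn and Synpo2. The 250 bases upstream of the start site are shown for the 3 genes among these that rose in strong CKO lungs (Acta2, Cnn1, Des) and for Synpo2, which lay at the other end of the set. All are written 5′ to 3′ on the gene's own strand. Capitals mark near-matches to the CArG box in Acta2 and a MEF2 site in Synpo2.
Acta2, chr19:34255374-34255623, minus strand: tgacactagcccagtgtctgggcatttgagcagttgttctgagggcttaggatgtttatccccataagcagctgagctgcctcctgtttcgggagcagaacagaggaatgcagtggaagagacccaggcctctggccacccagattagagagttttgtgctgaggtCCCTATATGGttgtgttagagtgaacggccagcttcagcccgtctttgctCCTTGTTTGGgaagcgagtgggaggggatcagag
Cnn1, chr9:22099003-22099252, plus strand: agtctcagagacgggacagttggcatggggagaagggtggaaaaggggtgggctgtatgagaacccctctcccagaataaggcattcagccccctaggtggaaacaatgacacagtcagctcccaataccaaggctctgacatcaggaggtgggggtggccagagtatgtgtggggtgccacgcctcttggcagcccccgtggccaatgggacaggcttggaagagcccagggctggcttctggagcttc
Des, chr1:75360042-75360291, plus strand: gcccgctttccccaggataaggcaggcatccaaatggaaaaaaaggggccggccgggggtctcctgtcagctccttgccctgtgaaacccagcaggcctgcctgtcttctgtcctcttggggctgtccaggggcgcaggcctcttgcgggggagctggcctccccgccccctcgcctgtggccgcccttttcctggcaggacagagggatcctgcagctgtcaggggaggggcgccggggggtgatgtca
Synpo2, chr3:123236150-123236399, minus strand: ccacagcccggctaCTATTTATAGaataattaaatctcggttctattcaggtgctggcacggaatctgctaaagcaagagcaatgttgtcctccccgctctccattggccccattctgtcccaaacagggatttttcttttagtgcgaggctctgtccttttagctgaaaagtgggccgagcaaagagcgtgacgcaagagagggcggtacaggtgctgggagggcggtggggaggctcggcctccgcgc

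None of the 6 windows held a perfect CArG box on either strand, a motif found in 1.5% of 32851 RefSeq promoter windows of the same length. The Acta2 window held 2 copies with a single base of the A/T core changed, CCCTATATGG at -84 to -75 and CCTTGTTTGG at -34 to -25 from the start site. Such copies occur in 7.2% of all windows, and none was in the other 5. Positions are counted from the RefSeq start, which differs from the GENCODE start for most of these genes. On the minus strand Acta2 starts at 34255590 in GENCODE, so both copies lie inside the gene there. The whole Smtn window, 3539293 to 3539542, lies inside the GENCODE span of Smtn, 3517523 to 3540612. The Cnn1 and Lmod1 windows reach a little into theirs. The Synpo2 window held CTATTTATAG at -236 to -227, a match to the MEF2 site, which 2.9% of all windows have. Its only TATAAA lies inside that match on the other strand, and 12.4% of all windows hold a TATAAA on either strand. CpG dinucleotides, the sites that DNMT1 keeps methylated, numbered 3 in Cnn1, 4 in Acta2, 6 in Lmod1, 7 in Smtn, 10 in Des and 13 in Synpo2. The middle part of all windows spans 2 to 16 CpGs (quartiles) around a median of 6. As a ratio to what base composition would give, CpGs stood at 0.14 in Cnn1, 0.23 in Acta2, 0.34 in Lmod1, 0.35 in Des, 0.4 in Smtn and 0.71 in Synpo2. The median over all windows was 0.37, with quartiles of 0.17 and 0.72. Methylation was not measured in these files.

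The set split in both mutant groups. Cnn1, Actg2 and Des rose in weak CKO lungs, by 1.57 to 2.44-fold. In strong CKO lungs these 3 and Acta2 rose, by 1.67 to 2.63-fold, and Tagln, Myocd, Lmod1, Myh11, Smtn and Synpo2 did not pass the test in either group. None was called lower in the main edgeR fit or by DESeq2, and none of the negative changes had an unadjusted p under 0.05 in that edgeR fit. Other edgeR fits did call Synpo2 lower, in both groups without MUT_W_549_3 and in strong CKO with only the groups compared. Of all genes tested, 9.09% were called higher and 5.38% lower in weak CKO against wild type, and 14.6% higher and 11.0% lower in strong CKO. The 3 of 10 and 4 of 10 members called higher stand beside those shares. Without WT_549_2 only Cnn1 of the 3 was called in weak CKO. The median change of the 10 members was 0.42 (log2) in weak and 0.37 in strong CKO, where the median of all genes was -0.01 and 0. Both comparisons use the same 3 wild-type lungs, so they are not independent of each other. In RNA of whole lungs, fewer cells of a type and less RNA per cell cannot be told apart, and the same holds for more.

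**Figure D1:**
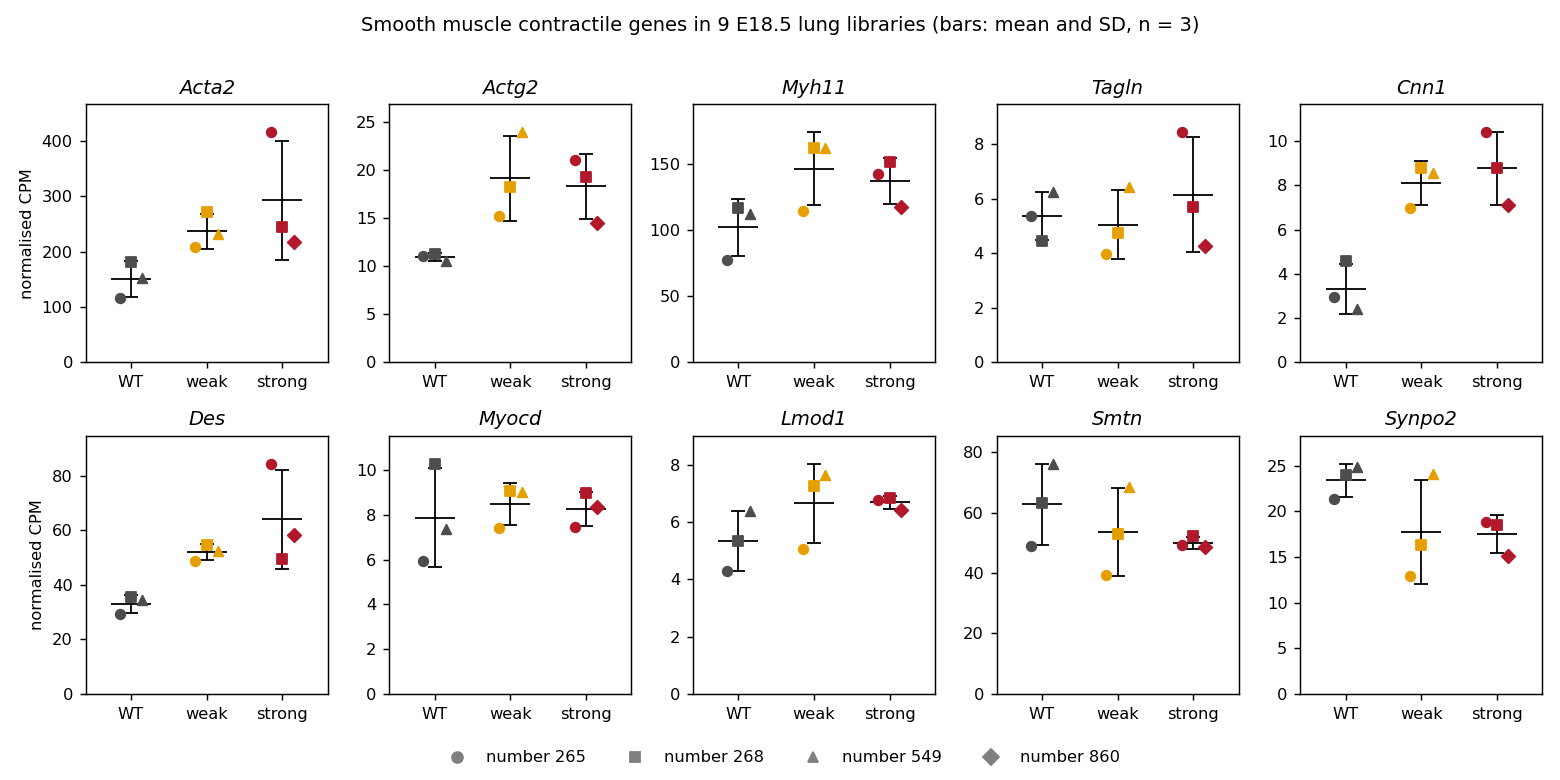
Normalised CPM (y axis, from 0, own scale per panel) of each of the 10 genes in the 9 lungs, by group (x axis); marker shapes give the library number, and bars give mean and SD (n = 3). For Acta2, Actg2, Cnn1 and Des every CKO lung of either kind lies above every wild-type lung; the strong CKO lung MUT_S_265_5 is highest of all 9 for Acta2, Des, Cnn1 and Tagln.

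Of the 2 smooth muscle actins, Acta2 encodes the α-actin of vascular and airway muscle (ENSMUSG00000035783, chromosome 19, 34241090 to 34255590, minus strand, GRCm38). It gave 116, 181 and 153 CPM in the wild-type lungs, 208, 271 and 231 in weak CKO and 416, 245 and 218 in strong CKO lungs. All CKO lungs were above all wild-type lungs, weak and strong CKO lungs overlapped, and the strong CKO lung MUT_S_265_5 stood well above the other two of its group. The change was 0.66 ± 0.26 (log2 ± SE) in weak CKO, which did not pass the test (adjusted p = 0.134), and 0.96 ± 0.26 in strong CKO, which did (adjusted p = 0.027). Without MUT_S_265_5 the strong CKO change was 0.63 (adjusted p = 0.0478). Leaving out the wild-type lung WT_265_1 or WT_549_2 lost the call, with adjusted p = 0.0824 and 0.0799. With the strong CKO lung MUT_S_265_5 left out of the fit, the weak CKO change of 0.66 was called (adjusted p = 0.032).

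Actg2 encodes the γ-actin of enteric and other visceral smooth muscle (ENSMUSG00000059430, chromosome 6, 83512905 to 83536265). The wild-type lungs lay close together at 11.0, 11.3 and 10.5 CPM. Weak CKO lungs gave 15.2, 18.2 and 23.9 CPM, and strong CKO lungs 21.1, 19.3 and 14.5. Every CKO lung was above every wild-type lung. Actg2 rose by 0.81 ± 0.17 in weak CKO (adjusted p = 0.014) and by 0.74 ± 0.18 in strong CKO (adjusted p = 0.012). Each call was lost without 1 lung. Without the wild-type lung WT_549_2 the weak CKO adjusted p was 0.0529, and without the strong CKO lung MUT_S_265_5 the strong CKO adjusted p was 0.0524.

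Myh11, the smooth muscle myosin heavy chain and the motor that pulls on these actins (ENSMUSG00000018830, chromosome 16, 14194535 to 14291372), did not pass the test. Its wild-type values were 77.6, 117 and 113 CPM. Weak CKO lungs gave 115, 163 and 163 CPM, and strong CKO lungs 143, 152 and 118. Strong CKO lungs lay above all wild-type lungs, the lowest of them by a narrow margin, while 1 weak CKO lung fell within the wild-type range. The changes were 0.52 ± 0.19 in weak CKO (adjusted p = 0.0997) and 0.43 ± 0.19 in strong CKO (adjusted p = 0.127). The weak CKO change was called by DESeq2 (adjusted p = 0.0286) and without the weak CKO lung MUT_W_265_2 (log2 change 0.67, adjusted p = 0.0482).

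Among the proteins that bind actin filaments, Cnn1 changed most. It encodes calponin, which damps the myosin motor's activity (ENSMUSG00000001349, chromosome 9, 22099216 to 22109630). Wild-type lungs gave 2.97, 4.59 and 2.43 CPM, weak CKO lungs 6.98, 8.80 and 8.55, and strong CKO lungs 10.4, 8.78 and 7.12. The highest wild-type lung was below the lowest CKO lung of either kind. Cnn1 rose 2.44-fold in weak CKO (log2 1.29 ± 0.23, adjusted p = 0.00557) and 2.63-fold in strong CKO (1.40 ± 0.23, adjusted p = 0.00209). It was called higher in all 17 other ways of processing in both comparisons, with adjusted p of at most 0.0283 in weak and 0.0107 in strong CKO. The counts behind it are low, 78 to 295 per library.

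Tagln encodes transgelin, or SM22α, which bundles actin filaments (ENSMUSG00000032085, chromosome 9, 45929619 to 45936058). Its values were 5.37, 4.46 and 6.22 CPM in wild type, 3.98, 4.74 and 6.42 in weak CKO and 8.44, 5.71 and 4.28 in strong CKO lungs. The groups overlapped throughout, and the spread was widest among strong CKO lungs. The changes were -0.08 ± 0.26 (adjusted p = 0.871) and 0.20 ± 0.26 (adjusted p = 0.618). Tagln is an uncertain measurement in these files. In the GENCODE annotation 62.4% of its exon bases also lie in Gm48529, an antisense gene counted at 34 to 67 reads per library. Another 5.4% overlap is with Pcsk7, a protein-coding gene on the opposite strand counted at 1274 to 1538 reads, far more than Tagln. Of the read-length stretches of Tagln, 53.3% occur in the transcripts of other genes. How such reads were assigned is not given in the sources used here.

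Smtn, for smoothelin, a protein of contractile smooth muscle cells (ENSMUSG00000020439, chromosome 11, 3517523 to 3540612), gave 49.0, 63.3 and 76.0 CPM in wild type. Weak CKO lungs gave 39.3, 53.0 and 68.3 CPM, and strong CKO lungs 49.2, 52.2 and 48.6. The groups overlapped. The 3 strong CKO lungs were close together, and neither change passed the test (-0.23 ± 0.20, adjusted p = 0.509, and -0.33 ± 0.20, adjusted p = 0.272). An opposite-strand gene, Gm11946, shares 16.3% of the Smtn exon bases.

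Lmod1, or leiomodin 1, which starts new actin filaments in smooth muscle (ENSMUSG00000048096, chromosome 1, 135324807 to 135368065), gave 4.29, 5.33 and 6.38 CPM in wild type. The weak CKO lungs gave 5.07, 7.25 and 7.65 CPM, and the strong CKO lungs 6.78, 6.85 and 6.42. Strong CKO lungs were all above the wild type, the lowest just so. The change was 0.32 ± 0.19 in each comparison, with adjusted p = 0.299 and 0.236.

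Desmin, the product of Des, is the intermediate filament of muscle cells and links their dense bodies (ENSMUSG00000026208, chromosome 1, 75360329 to 75368579). Wild-type lungs gave 29.2, 35.5 and 34.4 CPM, weak CKO lungs 48.8, 54.7 and 52.4, and strong CKO lungs 84.4, 49.5 and 58.3. The weak CKO lungs formed a tight group above the wild type, and again the strong CKO lung MUT_S_265_5 was far above the rest. Des rose by 0.65 ± 0.17 in weak CKO (adjusted p = 0.034) and by 0.95 ± 0.17 in strong CKO (adjusted p = 0.00381). Leaving out any one of the 6 wild-type or weak CKO lungs lost the weak CKO call, with adjusted p between 0.065 and 0.115 and log2 changes of 0.57 to 0.71. The strong CKO call was kept without MUT_S_265_5 (0.71, adjusted p = 0.00322), but 1 of 17 other ways of processing lost it (adjusted p = 0.0524).

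Synpo2 encodes myopodin, an actin-bundling protein of dense bodies and Z-discs (ENSMUSG00000050315, chromosome 3, 123076519 to 123236149). It gave 21.4, 24.0 and 24.9 CPM in wild type, 12.9, 16.3 and 24.1 in weak CKO and 18.8, 18.6 and 15.1 in strong CKO lungs. The means of the CKO groups were close, but all strong CKO lungs lay below the wild type and the weak CKO lung MUT_W_549_3 sat inside the wild-type range. Neither change passed the test (-0.40 ± 0.20, adjusted p = 0.218, and -0.42 ± 0.20, adjusted p = 0.148). Without the weak CKO lung MUT_W_549_3, Synpo2 was called lower in weak CKO (-0.68, adjusted p = 0.012) and in strong CKO (-0.42, adjusted p = 0.0315).

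Myocd, the transcriptional coactivator that drives much of this set through SRF (ENSMUSG00000020542, chromosome 11, 65176561 to 65269989), was at 5.97, 10.3 and 7.38 CPM in wild type. It was at 7.42, 9.07 and 9.02 CPM in weak CKO and 7.46, 8.99 and 8.36 in strong CKO lungs. All CKO lungs fell within the wild-type range. The changes were 0.11 ± 0.19 (95% interval -0.31 to 0.53) and 0.07 ± 0.19 (-0.35 to 0.49), with adjusted p = 0.753 and 0.821.

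**Figure D2:**
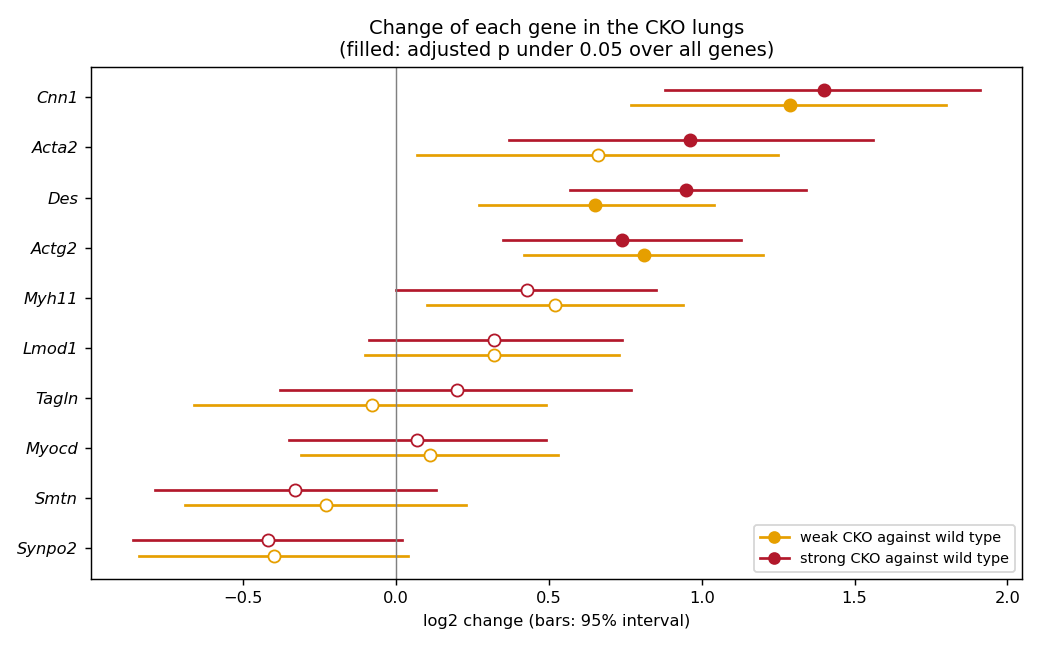
Log2 change of each gene (x axis) in weak and strong CKO lungs against wild type, with 95% intervals; genes are ordered by the strong CKO change and filled points passed adjusted p under 0.05. Cnn1, Actg2 and Des are filled in both comparisons, Acta2 in strong CKO, and the intervals of Tagln, Myocd, Lmod1, Smtn and Synpo2 cross 0 in both.

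Separation of the lungs was also counted, without a test. In weak CKO 4 members had all CKO lungs above all wild-type lungs (Acta2, Actg2, Cnn1, Des) and none had them all below, where 17.7% of all genes tested were separated upward and 13.8% downward. In strong CKO 6 members were separated upward (these and Myh11 and Lmod1) and Synpo2 downward, where the shares over all genes were 22.7% and 19%. Acta2 in weak CKO and Myh11, Lmod1 and Synpo2 in strong CKO were separated but did not pass the test.

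Between strong and weak CKO lungs no member was called in edgeR's quasi-likelihood test, and none had an unadjusted p under 0.05. Of all genes tested, 0% were called higher and 0.00516% lower in strong than in weak CKO, 1 gene in all, with 1099 at an unadjusted p under 0.05 and 10 called by DESeq2. The member with the smallest p was Des, at 0.30 ± 0.17 (95% interval -0.08 to 0.68, adjusted p = 0.882). Acta2 differed by 0.31 (interval -0.28 to 0.89), Cnn1 by 0.11 (-0.39 to 0.61), Actg2 by -0.07 (-0.45 to 0.32) and Myh11 by -0.09 (-0.51 to 0.33). These intervals span changes as large as some of those seen against wild type, so they do not show that the groups were alike. With 3 lungs a group, no difference between lungs that bled and lungs that did not was detectable in any of the 10 genes.

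Levels can be set side by side between genes only per length of transcript. The deposited RPKM (reads per kilobase and library depth) divide by a deposited gene length. For 96.4% of genes it equals the exons of all annotated transcripts added up, plus 1 base per exon, so shared exons count once for each transcript. For Smtn, with 10 transcripts, the deposited length is 4.69 times the merged exons. For Acta2 it is 0.82 times, less than such adding up could give, so Acta2 is not among those genes. Per kilobase of merged exons, the wild-type means (± SD, n = 3) ran from 68.4 ± 14.8 for Acta2 through 14.3 ± 3.08 for Smtn, 13.5 ± 2.82 for Myh11, 8.80 ± 0.897 for Des and 7.02 ± 0.258 for Actg2. Below these came Tagln at 2.69 ± 0.444, Synpo2 at 1.79 ± 0.139, Lmod1 at 1.35 ± 0.264, Myocd at 1.23 ± 0.344 and Cnn1 at 1.22 ± 0.411. Smtn and Myh11 overlapped between lungs, as did Lmod1, Myocd and Cnn1. Every other pair of neighbours was apart in all wild-type lungs, Synpo2 and Lmod1 by the narrowest margin (lowest 1.63 against highest 1.62).

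The order shifted in the CKO lungs. Cnn1, the lowest of the 10 by mean in wild type, was the 6th highest by mean in both CKO groups. Its lungs stood at 2.55 to 3.22 in weak and 2.60 to 3.80 in strong CKO, above all those of Synpo2, Lmod1 and Myocd. Cnn1 overlapped with Tagln (2.54 ± 0.628 and 3.09 ± 1.06), itself an uncertain measurement, so the order of Cnn1 and Tagln is not told apart. Smtn, the 2nd by mean in wild type, stood at 12.2 ± 3.32 and 11.4 ± 0.445, below the means of Acta2, Myh11 and Des. It overlapped with Actg2 (12.3 ± 2.83 and 11.7 ± 2.18) in both CKO groups, so those places in the order are not told apart, and in weak CKO its lungs, at 8.97 to 15.6, overlapped with Des and Myh11 too. Des stood at 13.8 ± 0.792 in weak and 17.1 ± 4.83 in strong CKO, and Acta2 at 108 ± 14.4 and 133 ± 49.0. With the deposited RPKM the wild-type order is another: Smtn, at 2.78, falls behind Des at 6.46 and Myh11 at 4.42.

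**Figure D3:**
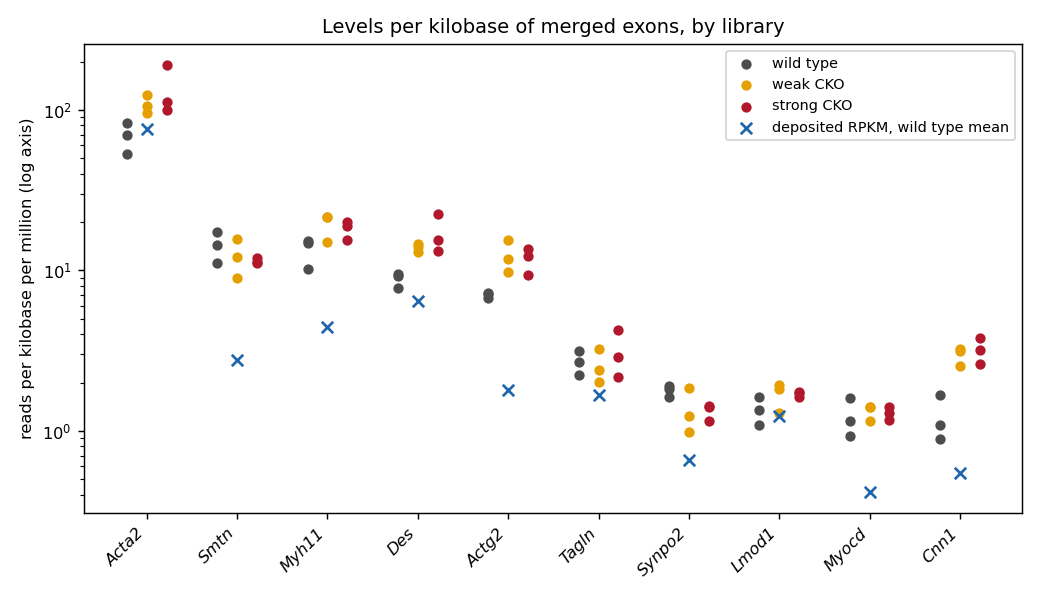
Depth-scaled reads per kilobase of merged exons (y axis, log scale) for the 10 genes in each lung, ordered by the wild-type mean; crosses give the wild-type mean of the deposited RPKM, which divides by a different length. Cnn1 moves from about 1.22 to about 3 in the CKO lungs, and the crosses of Smtn, Myh11 and Actg2 lie well below their points.

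Across the 9 lungs some members followed one another. Correlations of log2 CPM are given as descriptions only, since the lungs share groups and depth. Acta2 and Des had r = 0.95, and 0.89 once group means were removed; MUT_S_265_5 is at the top of both. Smtn and Synpo2 had r = 0.87, and 0.85 within groups. Lmod1 followed Myh11 (0.91, and 0.88 within groups). Lmod1 and Smtn were apart across groups (0.38) and close within them (0.96), and Actg2 and Synpo2 likewise (-0.23 and 0.90). Cnn1 and Synpo2 ran in opposite directions over the 9 lungs (-0.50) but not within groups (0.36).

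Of 11196 genes with a mean of at least 3 on the log2 CPM scale, those most like Acta2 over the 9 lungs were Scrn2 (r = 0.97), Psrc1 (0.96), Pcdh7 (0.96) and Psmd11 (0.95). Those most like Myh11 were Fam98b (0.95), Nucks1 (0.92), Sufu (0.92) and Cand2 (0.92). The 9 points are few for so many genes searched, and none of these genes is in the lists described next.

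In other parts of the contractile machinery more genes were called lower than higher. Of 20 other contractile and dense-body genes, 1 was called higher and 4 lower in weak CKO, and 1 higher and 7 lower in strong CKO, with medians of -0.13 and -0.18. Over all genes tested, 9.09% were called higher and 5.38% lower in weak CKO, and 14.6% and 11.0% in strong CKO. The counts of this list, of the lists below and of all marker lists stand beside those shares. Itga8, Mylk and Ppp1r14a were called lower in both groups. Mylk, the myosin light chain kinase that starts contraction, gave 617, 735 and 756 CPM in wild type, 461, 511 and 536 in weak CKO and 388, 469 and 427 in strong CKO lungs. It fell by 0.48 ± 0.10 in weak CKO (adjusted p = 0.0125) and by 0.72 ± 0.10 in strong CKO (adjusted p = 0.000928). Itga8, an integrin subunit of smooth muscle and myofibroblasts, fell by 0.74 ± 0.10 (adjusted p = 0.00129) and by 1.02 ± 0.11 (adjusted p = 0.000132). Ppp1r14a, an inhibitor of myosin phosphatase, fell by 0.42 and 0.66 (adjusted p = 0.0419 and 0.00324), and its weak CKO call was lost in 9 of 17 other ways of processing. The 4 lower in weak CKO became 2 without MUT_W_265_2 and 1 without MUT_W_268_3, and the 7 lower in strong CKO became 4 without MUT_S_860_3.

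Among the receptors and second messengers that set smooth muscle tone, all genes called in the main fit were lower. None of 14 was called higher in weak or strong CKO, where 9.09% and 14.6% of all genes were. Called lower were 3 in weak CKO and 5 in strong CKO, where 5.38% and 11.0% of all genes were, with medians of -0.19 and -0.24. The 3 became 1 without MUT_W_268_3 and the 5 became 3 without MUT_S_265_5, and DESeq2 called 1 higher in strong CKO. Prkg1, the cGMP-dependent kinase that relaxes smooth muscle, gave 47.4, 47.4 and 38.2 CPM in wild type, 25.1, 28.3 and 25.4 in weak CKO and 19.9, 24.3 and 21.8 in strong CKO lungs. It fell by 0.75 ± 0.11 (adjusted p = 0.0013) and by 1.01 ± 0.11 (adjusted p = 0.000153). Gucy1a1, a subunit of the nitric oxide receptor that makes cGMP, fell by 1.26 ± 0.26 in strong CKO (adjusted p = 0.00864), and its weak CKO change of -0.64 ± 0.25 did not pass (adjusted p = 0.137). The angiotensin receptor gene Agtr1a fell by 0.88 and 1.34 (adjusted p = 0.0289 and 0.00261), the first call being lost in 5 of 17 other ways of processing. Chrm2, a muscarinic acetylcholine receptor gene, fell by 1.01 and 0.79 (adjusted p = 0.0144 and 0.0248), and 4 of 17 lost the second call.

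Of the transcriptional regulators, 12 of 14 listed symbols were in the table, Mrtfa and Mrtfb standing there as Mkl1 and Mkl2. In weak CKO 1 was higher and 2 lower, and in strong CKO 2 were higher and 6 lower, with medians of -0.13 and -0.20. The strong CKO count of 6 lower was 2 without MUT_S_265_5 or MUT_S_860_3 and 3 without WT_265_1. Elk1, an SRF partner that competes with myocardin, fell by 0.47 ± 0.07 and 0.49 ± 0.07 (adjusted p = 0.00242 and 0.00105). Tgfb1i1, a coactivator also called Hic-5, fell by 0.56 and 0.74 (adjusted p = 0.00962 and 0.00125). Csrp2, an SRF cofactor, rose by 0.29 and 0.41 (adjusted p = 0.0471 and 0.00635), and its weak CKO call was lost in 10 of 17 other ways of processing. Fhl2, a partner of SRF, rose by 0.91 ± 0.22 in strong CKO (adjusted p = 0.0127) and had a change of 0.72 in weak CKO that missed the threshold (adjusted p = 0.0543). Srf itself, named here after its values were seen, changed by -0.12 ± 0.08 and -0.25 ± 0.08 (adjusted p = 0.404 and 0.0489), and 13 of 17 other ways of processing lost the second call.

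Close relatives of the members that are not specific to smooth muscle showed no common direction. Of 18 paralogs, 3 were higher and 1 lower in weak CKO (9.09% and 5.38% of all genes). In strong CKO 4 were higher and 2 lower (14.6% and 11.0% of all genes). The medians were -0.01 and -0.07. The 3 higher in weak CKO became 1 without WT_549_2 or MUT_W_265_2 and 0 without MUT_W_268_3, and the 4 higher in strong CKO became 2 without WT_268_1. Cnn2, a calponin not specific to smooth muscle, fell by 0.37 ± 0.09 and 0.56 ± 0.10 (adjusted p = 0.0283 and 0.0023) where Cnn1 rose. The weak CKO call of Cnn2 was lost in 5 of 17 other ways of processing. Synpo, a relative of Synpo2, rose by 0.93 ± 0.20 and 1.22 ± 0.20 (adjusted p = 0.0181 and 0.00321) where Synpo2 did not pass. Actc1, the cardiac actin, rose by 1.09 ± 0.27 in strong CKO (adjusted p = 0.0209) and changed by 0.87 in weak CKO (adjusted p = 0.0705). Smtnl2, related to smoothelin, rose by 0.25 and 0.24 (adjusted p = 0.0141 and 0.00931).

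**Figure D4:**
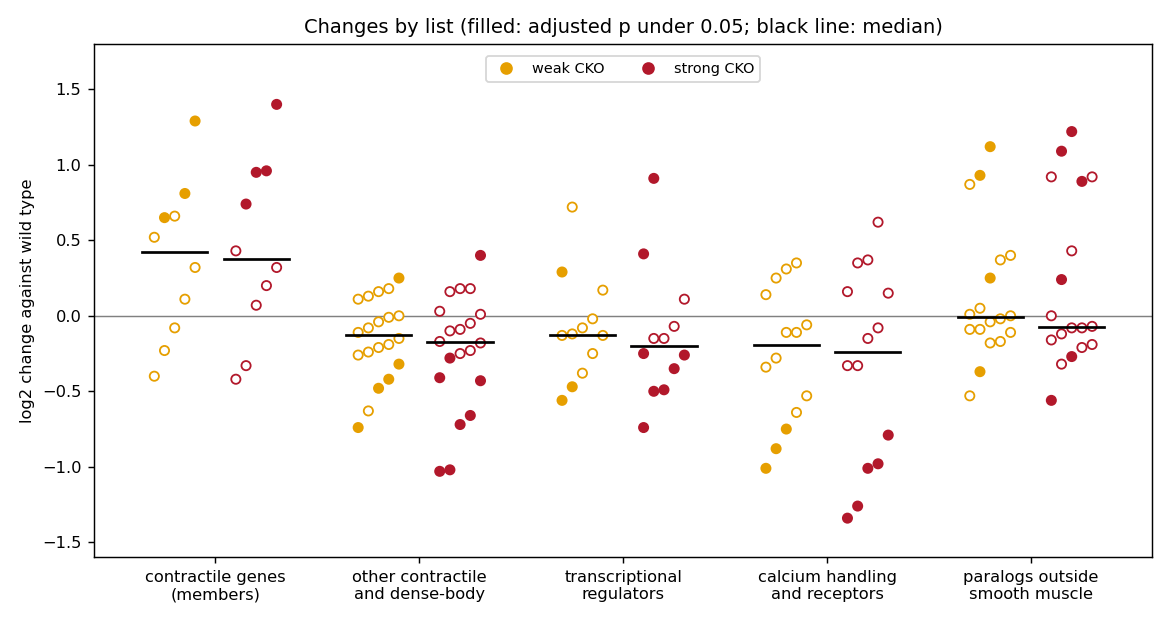
Log2 change against wild type (y axis) of every tested gene of the 10 members and of 4 other lists, in weak and strong CKO lungs; filled points passed adjusted p under 0.05 and black lines are medians. All filled points of the members lie above 0, all filled points of the calcium handling and receptor list lie below 0, and the other 3 lists have both.

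Some markers of other muscle were called higher too, most of them in strong CKO lungs. Of 10 tested cardiac markers, 2 were higher and 1 lower in weak CKO, and 7 higher and 1 lower in strong CKO. The lower one in both was Ryr2, the calcium release channel (-0.55 and -0.62). The 11 cardiac markers summed to 304 to 347 CPM in wild type, 356 to 477 in weak CKO and 355 to 571 in strong CKO lungs, with the highest sum in the strong CKO lung MUT_S_265_5. Cardiac markers called higher in strong CKO numbered 4 without that lung and 3 without WT_268_1. In weak CKO the 2 became 0 without WT_265_1, WT_268_1 or MUT_W_549_3. Myh6, the cardiac myosin heavy chain, gave 32.8 to 39.7 CPM in wild type, 53.3 to 79.7 in weak CKO and 61.1 to 113 in strong CKO lungs. Nppa, the atrial hormone gene, was at 0 in 4 libraries and under 0.1 CPM in the rest. Mouse pulmonary veins are known to carry a sleeve of cardiac muscle, and desmin is shared by all muscle types. Skeletal muscle markers, 7 in the table, summed to 10.4 to 12.5 CPM in wild type, 14.7 to 17.1 in weak CKO and 14.7 to 22.9 in strong CKO lungs. Of the 6 tested, 2 were higher and 1 lower in weak CKO, and 3 higher and none lower in strong CKO. The part of cardiac or skeletal muscle RNA in the rise of Acta2, Des, Actg2 and Cnn1 was not tested.

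Markers of cells that neighbour or resemble smooth muscle went several ways. Of 8 pericyte markers, 3 were higher and 2 lower in weak CKO, and 3 higher and 4 lower in strong CKO. They summed to 584 to 625 CPM in wild type, 541 to 597 in weak CKO and 454 to 567 in strong CKO lungs. Of 7 markers of lung fibroblasts and myofibroblast precursors, none was higher, 4 were lower in weak CKO and 6 in strong CKO. Their sum ran from 2135 to 2483 CPM in wild type, 2005 to 2218 in weak CKO and 2011 to 2224 in strong CKO lungs. That sum is dominated by Col1a1, the only one of the 7 not called lower in strong CKO. Its mean CPM was 1217 in wild type, 1382 in weak CKO and 1535 in strong CKO, and neither change passed the test. Of 3 airway smooth muscle genes, Hhip, a Hedgehog inhibitor, fell by 0.69 ± 0.15 and 1.09 ± 0.15 (adjusted p = 0.0137 and 0.000805). Lgr6 gave 7.50 to 23.7 CPM in wild type, 24.2 to 42.1 in weak CKO and 32.5 to 38.5 in strong CKO lungs, and did not pass (log2 change 1.01 and 1.16, adjusted p = 0.124 and 0.0589). Of 17 other ways of processing, 1 called Lgr6 higher in weak CKO and 4 in strong CKO. The third, Foxf1, is also in the lung list and was called lower in strong CKO. The 3 airway muscle genes summed to 655 to 694 CPM in wild type, 420 to 541 in weak CKO and 306 to 459 in strong CKO lungs. That sum is dominated by Hhip and Foxf1, with wild-type means of 502 and 162 CPM against 15.7 for Lgr6. It therefore does not show the direction of Lgr6.

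Among cell types farther from muscle, 1 of 4 mesothelial markers was higher in each CKO group, their sum being 852 to 1621 CPM in wild type, 809 to 1220 in weak and 859 to 1321 in strong CKO lungs. Endothelial markers summed to 1786 to 2329, 1604 to 1651 and 1193 to 1487 CPM in the 3 groups, with 2 of 4 lower in weak CKO and all 4 lower in strong CKO. The 15 erythroid genes summed to 4010 to 7453 CPM in wild type, 3822 to 4432 in weak CKO and 6804 to 12740 in strong CKO lungs. None of them was called higher. In each group 2 were lower, where 5.38% of all genes were lower in weak CKO and 11.0% in strong CKO. The part of these cell types in the members' changes was not tested. Leaving the erythroid genes out of the totals changed no member's call, but that bears only on the scaling of the libraries.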

How the data were processed

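RNA from 9 E18.5 mouse lungs was sequenced, 3 per group, as single reads per the labels. The authors deposited raw read counts per gene and, beside them, RPKM values with the gene length used. The submitters' processing notes name STAR, GRCm38.p6, cutadapt 2.5, Trimmomatic 0.36, FastQC 0.11.8 and edgeR 3.28.1, in no stated order. How reads were counted, with which annotation and strand setting, is not given in the sources used here. Reads of a gene and of an antisense gene that overlaps it may therefore be mixed. Of 27207 identifiers, 27189 were found in GENCODE M21, which gave positions and merged exon lengths.

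The counts were fitted with edgeR 4.0.16 (R 4.3.3): TMM factors, filterByExpr by group, the robust quasi-likelihood F-test, 1 mean per group over all 9 libraries, two-sided, Benjamini-Hochberg adjustment over all 19374 genes, threshold 0.05. The biological coefficient of variation was 0.15. Standard errors and 95% intervals come from the same fit. The fit was run on counts simulated with its own estimate of the spread, to look at its calls and the direction and size of its changes. Those simulations did not check the standard errors or intervals. Correlations used log2 CPM with a prior count of 2. Promoter motifs were searched on both strands.

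Alternatives were DESeq2 1.42.0, limma 3.58.1 on log2 of the deposited RPKM plus a pseudocount of 1 or 0.1, no filter on low counts, upper quartile factors, a fit of only the groups compared, the library number as a block, erythroid genes left out, and each library left out in turn. The members and lists were chosen with earlier results of these data known. Genes named from the other lists are up to 4 per list with the smallest adjusted p among those called against wild type, of which 1 is not reported here. For Acta2 and Myh11 the 4 genes of highest correlation outside the lists are named. Myh6, Nppa, Hhip, Lgr6, Foxf1, Ryr2 and Srf were named after their values were seen. Replicates of a group differed by more than sampling noise.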

Additional observations from a re-analysis of the deposited data

How the results depend on the processing

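Of the 20 changes of the 10 genes against wild type, 10 kept their side of the threshold in all 17 other settings and none was reversed when called. Cnn1 kept both calls throughout, although log2 of RPKM plus 1 shrank its changes to 0.60 and 0.67. The number of members higher in weak CKO was 3 and ranged from 1 to 4 when single libraries were left out, and the number lower was 0 and ranged from 0 to 1 (Synpo2). In strong CKO the number of members higher was 4 and ranged from 3 to 4 without single libraries, and the number lower ranged from 0 to 1 without single libraries and was 1 with only the groups compared (Synpo2, adjusted p = 0.0319). Genes called in weak CKO ranged from 1310 to 2828 without single libraries against 2803 with all, lowest without MUT_W_268_3, and those in strong CKO from 3101 to 4983 against 4969, lowest without MUT_S_265_5. Genes called between strong and weak CKO were 1 in all and 1 to 4 without single libraries, 10 with DESeq2, 4 with only the groups compared, 2 with limma at a pseudocount of 0.1 and 3 with the replicate block. The cause of these shifts was not tested.

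With the library number as a replicate block, Des was not called in either comparison (adjusted p = 0.116 and 0.0524), nor was Acta2 in strong CKO (1.15, adjusted p = 0.108), while Myh11 was called in both (0.52 and 0.63, adjusted p = 0.00585 and 0.00486). A number is shared by up to 3 lungs. The deviations of same-numbered lungs from their group means correlated at -0.09 to 0.35, and those of lungs with different numbers at -0.38 to 0.19. The highest values, 0.35 and 0.3, were of same-numbered lungs. MUT_W_268_3 and MUT_S_268_4, however, did not correlate best with a lung of their own number. Whether the numbers pair the lungs is thus not settled. Acta2 in strong CKO was also not called without the filter on low counts (adjusted p = 0.053) or with only the groups compared (0.0602), where its weak CKO change was called (0.0417). Cnn1, Tagln, Lmod1 and Myocd rest on 319 counts or fewer per library, which limits how small a change could be seen.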
